A study of Mus musculus with 8 samples.

Results

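The BCL2 family decides whether a cell under stress keeps its mitochondrial outer membrane intact, and 10 of its genes were followed through differentiation of mouse embryonic stem cells. They were listed by name with results of these data already known, and no measured value enters the rule: the anti-apoptotic Bcl2, Bcl2l1 and Mcl1, the effectors Bax and Bak1, and the BH3-only genes Bcl2l11, Bbc3, Pmaip1, Bid and Bad. They have 52 transcripts, are 10 of the 32780 genes measured, and were all abundant enough to enter the test of 15097 genes. The cells were TC1, a wild-type embryonic stem cell line, either after 10 days of differentiation (4 libraries, labelled differentiated cells) or before it at day 0 (4 libraries, labelled mESCs and control). Both days share line and genotype, so all values come from a single line. RNA was total RNA of dissociated cells, with ribosomal RNA removed during library preparation. Whether the 4 libraries of each day are separate cultures is not labelled, and p-values therefore reflect only how these libraries vary, which may be technical.

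Total estimated counts were 13525255 to 17843651 for a day 10 library and 11242568 to 15808039 for a day 0 library. For 1 gene between days, levels are in CPM (counts per 1000000 of the library, after TMM scaling), and in TPM (the same for transcripts, scaled for length) wherever genes are set side by side. The state of the cells at each day was read from marker lists. All 10 pluripotency markers fell on counts, and their summed level was 184 to 252 CPM at day 10 and 3786 to 4193 CPM at day 0. The fall of Klf4 was slight, with overlapping days (log2 -0.19, edgeR adjusted p = 0.0224), and on log2(TPM + 1) Klf4 was higher at day 10 (log2 0.24, limma-trend adjusted p = 0.0195). The day 10 libraries held markers of several cell types. All 12 cardiomyocyte markers tested of 13 were higher (591 to 816 CPM summed at day 10, against 135 to 139 CPM at day 0), as were 7 of 8 fibroblast markers (5985 to 10669 CPM at day 10, against 121.3 to 136.4 CPM at day 0). Of the other lists, 7 of 8 endothelial markers (430 to 525 CPM at day 10, against 48.4 to 52.5 CPM at day 0) and 6 of 7 smooth muscle markers (476 to 803 CPM at day 10, against 14.6 to 23.3 CPM at day 0) were higher. So were 8 of 10 blood markers tested of 11 (89.3 to 154 CPM at day 10, against 23.9 to 27.9 CPM at day 0, where 3 had 0 counts) and 5 of 8 endoderm markers (1138 to 3747 CPM at day 10, against 465 to 513 CPM at day 0). Neural markers were mixed, with 2 higher and 3 lower of 8 (139 to 294 CPM at day 10, against 286 to 319 CPM at day 0). All 8 proliferation markers fell on counts (1993 to 2079 CPM at day 10, against 4483 to 4870 CPM at day 0), while Mki67 did not pass on log2(TPM + 1) (log2 -0.11, limma-trend adjusted p = 0.296). In such bulk samples fewer cells of a type and less RNA per cell cannot be told apart, and the part of cell composition or of proliferation in any result given here was not tested.

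Day 10 library 2 stood apart from the other day 10 libraries in these markers. Its summed neural markers were at 294 CPM, against 139 to 154 CPM in the other day 10 libraries. Sox1 was at 29.1 CPM in it and 0.504 to 3.09 CPM in the others, Pax6 at 19 CPM and 2.30 to 5.0 CPM, and Elavl3 at 16.2 CPM and 1.68 to 2.48 CPM. It also had the lowest fibroblast sum (5985 CPM, against 8521 to 10669 CPM in the others), smooth muscle sum (476 CPM, against 615 to 803 CPM) and blood sum (89.3 CPM, against 138 to 154 CPM), and the highest endoderm sum (3747 CPM, against 1138 to 2600 CPM). Without it 5 rather than 3 neural markers and 3 rather than 0 endoderm markers were lower at day 10. Among the family it had the lowest Mcl1 and the highest Bcl2l1, Bax and Bid of its day, as given below per library, and the part of its makeup in those values was not tested.

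The family works through binding between its members. Anti-apoptotic proteins hold the effectors BAX and BAK and the BH3-only proteins in a groove, while BH3-only proteins are made or activated under stress, fill that groove or activate the effectors directly, and free effectors form the pore through which cytochrome c leaves the mitochondrion. Embryonic stem cells are known for a low threshold to mitochondrial apoptosis, and cells of a developing tissue differ in which anti-apoptotic member they rely on. What counts in the cell is protein, its state and its location, which RNA does not measure.

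The element all these proteins have in common is the BH3 helix, whose core is a leucine, 3 residues of any kind, a small residue (glycine, alanine or serine) and an aspartate. The coding sequences of 9 members are shown at that core, since the BH3 helix of a pro-apoptotic member is what the groove of an anti-apoptotic one holds. Each is 45 bases of a GENCODE M21 transcript (build GRCm38), 5′ to 3′ on the coding strand, and the 18 capitals mark the 6 codons of the core, found by 1 in-frame match in each transcript. Pmaip1 is neither shown nor in the sums by core below. It does not lack the core, as its main transcript, Pmaip1-201, had 2 matches.
Bcl2 (Bcl2-201, chromosome 1, minus strand): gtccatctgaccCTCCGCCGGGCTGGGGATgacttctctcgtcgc
Bcl2l1 (Bcl2l1-201, chromosome 2, minus strand): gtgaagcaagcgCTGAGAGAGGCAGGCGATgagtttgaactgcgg
Mcl1 (Mcl1-201, chromosome 3, plus strand): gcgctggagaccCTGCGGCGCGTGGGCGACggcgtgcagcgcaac
Bax (Bax-201, chromosome 7, minus strand): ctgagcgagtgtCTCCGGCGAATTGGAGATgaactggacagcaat
Bak1 (Bak1-202, chromosome 17, minus strand): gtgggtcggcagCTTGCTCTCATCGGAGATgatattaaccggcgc
Bcl2l11 (Bcl2l11-205, chromosome 2, plus strand): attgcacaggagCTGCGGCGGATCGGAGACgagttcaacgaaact
Bbc3 (Bbc3-201, chromosome 7, plus strand): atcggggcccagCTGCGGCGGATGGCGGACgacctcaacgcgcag
Bid (Bid-201, chromosome 6, minus strand): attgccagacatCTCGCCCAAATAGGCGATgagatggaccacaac
Bad (Bad-202, chromosome 19, plus strand): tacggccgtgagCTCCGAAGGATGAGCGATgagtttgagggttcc
Over the 36 pairs of these cores, 7 to 15 of the 18 bases were the same, with a median of 11. The closest pair was Bcl2l11 and Bbc3, and the most distant was Bcl2l1 and Bak1. The core was also used to tell transcripts that encode it from those that do not.

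Relative to day 0, the family at day 10 had more Bcl2, more Bcl2l11 and slightly more Bcl2l1, and less Bax, Bak1, Mcl1, Bbc3, Pmaip1 and Bid. With edgeR's quasi-likelihood test and p-values adjusted by Benjamini-Hochberg over all genes, 9 of the 10 passed the threshold of 0.05, 3 higher and 6 lower. Across all tested genes 82.1% passed, 42.7% higher and 39.4% lower, so the share of members that passed is near the background. Changes tested to be over 2-fold were found in 4 members (Bcl2 higher, and Bax, Pmaip1 and Bid lower), against 41.4% of all genes (24.1% higher and 17.3% lower). The CPM values of the days did not overlap for 9 members, against 77.9% of all genes. The median log2 change was -0.63 over the 10 members and 0.06 over all tested genes. By role, 2 of the 3 anti-apoptotic genes were higher and 1 lower, while 1 of the 7 pro-apoptotic genes was higher, 5 were lower and 1 did not pass. TPM moved the scale: the median of all genes was 0.40 on log2(TPM + 1), and 65.8% of called genes were higher with limma-trend on TPM, against 52.0% on counts. Changes on TPM are therefore also given as their distance from that median (the TPM median). With limma-trend on TPM 9 members passed, 4 higher and 5 lower, against 79.2% of all genes (52.1% higher and 27.1% lower).

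Without day 10 library 2, the same 9 members passed in edgeR. The log2 changes were then 3.40 for Bcl2, 0.35 for Bcl2l1, -0.69 for Mcl1, -1.92 for Bax, -1.01 for Bak1, 0.93 for Bcl2l11, -0.54 for Bbc3, -2.20 for Pmaip1 and -2.32 for Bid. Bad, at 0.14 (edgeR adjusted p = 0.464), again did not pass. Each value lies close to that with all 4 day 10 libraries, given with each gene below.

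**Figure D1:**
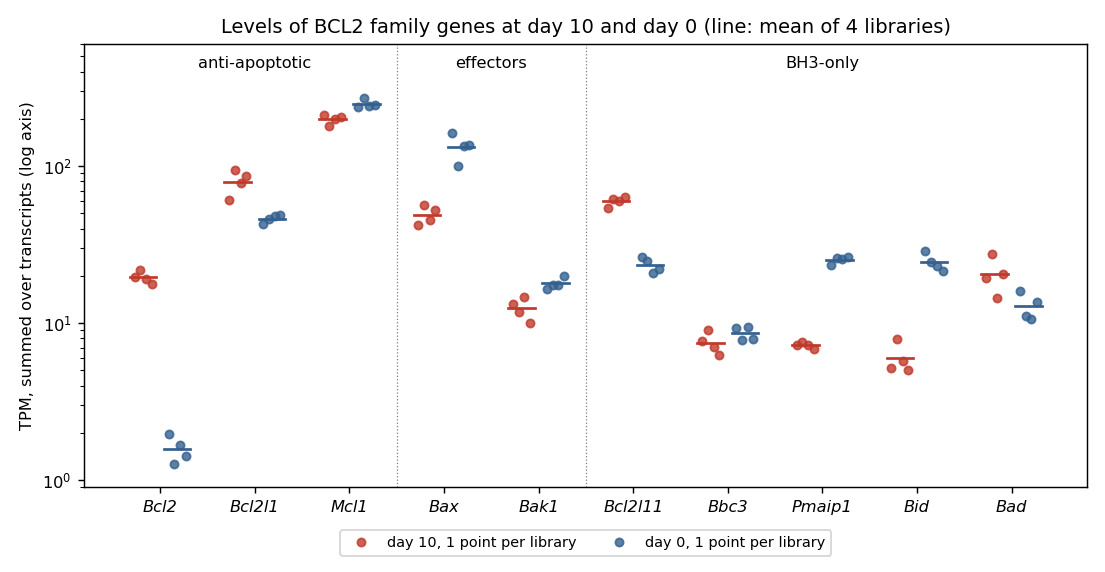
TPM of each gene summed over its transcripts, on a log axis, with 1 point per library, day 10 left of day 0, and a line at the mean of 4 libraries. Bcl2 averaged 19.6 TPM at day 10 and 1.59 TPM at day 0. The points of the days overlap for Bbc3 and for Bad, though Bad averaged 20.6 TPM at day 10 and 12.8 TPM at day 0.

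Bcl2, which protects the mitochondrial and endoplasmic reticulum membranes and is named after B-cell lymphoma, showed the steepest change of the family. In the 4 day 10 libraries it had 52.0, 52.4, 51.1 and 47.3 CPM, against 5.71, 4.04, 4.72 and 4.65 CPM at day 0. Every day 10 library was thus far above every day 0 library, although at day 0 the gene rested on 56 to 71 counts per library. Bcl2 (ENSMUSG00000057329, chromosome 1) rose by log2 3.41 ± 0.11 (SE), or 10.7-fold (edgeR, adjusted p = 3.54e-12). On TPM the log2 change was 3.0, or 2.60 above the TPM median. An antisense neighbour, D630008O14Rik, overlaps it and had 0 counts on both days.

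Bcl2l1, which encodes Bcl-xL and restrains the effectors, had 42.5, 53.5, 49.4 and 48.5 CPM at day 10, against 38.8, 33.8, 36.1 and 37.8 CPM at day 0. The lowest day 10 library lay just above the highest day 0 library. Bcl2l1 (ENSMUSG00000007659, chromosome 2) rose by log2 0.40 ± 0.09 (edgeR, adjusted p = 0.000617). That estimate was 0.74 with the trend of change on transcript length removed and 0.75 on TPM, which is 0.36 above the TPM median.

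Mcl1, a short-lived protein that needs constant resynthesis, had 341, 275, 319 and 329 CPM at day 10, against 494, 557, 531 and 536 CPM at day 0. The days were clearly apart. Mcl1 (ENSMUSG00000038612, chromosome 3) fell by 0.74 ± 0.07 on the log2 scale (edgeR, adjusted p = 2.9e-07). Per length the fall was smaller, by 0.32 on TPM, or by 0.72 relative to the TPM median. Even so it remained the most abundant member per length on both days, at 199 ± 13.8 TPM at day 10 and 248 ± 15.8 TPM at day 0 (SD, n = 4 each).

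The 2 effectors, whose proteins build the pore, both fell. Bax had 14.2, 18, 14.8 and 16.4 CPM at day 10, against 66.9, 41.1, 63.6 and 58.3 CPM at day 0. Day 0 library 2 was the lowest of its group and still more than every day 10 library. Bax (ENSMUSG00000003873, chromosome 7) fell by 1.85 ± 0.14 on the log2 scale (edgeR, adjusted p = 6.67e-08), or by 1.18 with the length trend removed, and was 3.61-fold higher at day 0. On TPM it fell by 1.41, or by 1.81 relative to the TPM median.

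Bak1 had 12.6, 9.94, 13 and 9.53 CPM at day 10, against 21.1, 22, 23.9 and 26.5 CPM at day 0. All day 10 values lay under all day 0 values. Bak1 (ENSMUSG00000057789, chromosome 17) fell by 1.06 ± 0.13 on the log2 scale (edgeR, adjusted p = 3.45e-06). The size of this fall depended on the transcripts summed and on the unit. It was 2.60 with protein-coding transcripts alone, and 0.50 on TPM over all transcripts (0.90 relative to the TPM median). An antisense gene, Ggnbp1, overlaps Bak1 and had 60.6 counts at day 10 and 98.6 at day 0 over the group. Strand use is not stated, so reads of the overlap cannot be assigned to either gene with certainty.

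Among the BH3-only genes Bcl2l11 moved against Pmaip1, Bid and Bbc3. It encodes BIM, which binds all anti-apoptotic members and activates the effectors, and it had 77.4, 72.2, 77.8 and 83.8 CPM at day 10, against 43.8, 42.8, 39.1 and 41.0 CPM at day 0. The days were well apart and each was tight. Bcl2l11 (ENSMUSG00000027381, chromosome 2) rose by log2 0.90 ± 0.07 (edgeR, adjusted p = 3.93e-08), and by 1.31 on TPM, which is 0.92 above the TPM median.

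Pmaip1 encodes NOXA, which acts mainly on MCL1. It had 9.20, 9.20, 9.13 and 8.35 CPM at day 10, against 36.6, 40.0, 42.9 and 43.7 CPM at day 0. All day 10 libraries were low and close to each other. Pmaip1 (ENSMUSG00000024521, chromosome 18) fell by 2.19 ± 0.10 on the log2 scale (edgeR, adjusted p = 7.51e-11), or by 2.07 on TPM relative to the TPM median.

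Bid, whose protein links death receptors to mitochondria once caspase-8 cleaves it, had 5.0, 7.10, 5.99 and 5.21 CPM at day 10, against 27.4, 26.0, 29.0 and 25.6 CPM at day 0. No day 10 library came near the day 0 range. Bid (ENSMUSG00000004446, chromosome 6) fell by 2.21 ± 0.13 on the log2 scale (edgeR, adjusted p = 1.11e-09), or by 2.28 on TPM relative to the TPM median. Bcl2l13 lies on the other strand over part of Bid and held more reads, with 5312 counts at day 10 and 3700 at day 0 over the group. As strand use is not stated, reads of that overlap cannot be assigned to either gene with certainty.

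Bbc3, which encodes PUMA, a p53-induced binder of all anti-apoptotic members, was among the least abundant of the family. It had 4.93, 5.31, 5.70 and 4.88 CPM at day 10, against 7.93, 6.62, 7.41 and 7.99 CPM at day 0. The days were apart, on a mean of only 79.5 counts per library at day 10 and 97.8 at day 0. Bbc3 (ENSMUSG00000002083, chromosome 7) fell by 0.52 ± 0.15 on the log2 scale (edgeR, adjusted p = 0.00608). The call was lost in 4 of 18 alternatives, with the length trend removed (log2 -0.27, edgeR adjusted p = 0.124), with protein-coding transcripts alone (log2 -0.32, edgeR adjusted p = 0.138) and on TPM with either pseudocount (log2 -0.18 and -0.20, limma-trend adjusted p = 0.238 and 0.248). Over all alternatives its adjusted p was 0.0046 to 0.248.

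Bad, a BH3-only protein that survival kinases phosphorylate and 14-3-3 proteins then hold in the cytosol, was the member that did not pass. It had 8.32, 8.40, 6.06 and 7.85 CPM at day 10, against 7.0, 5.57, 6.90 and 7.40 CPM at day 0. The days overlapped, and day 10 library 3 lay within the day 0 range. Bad (ENSMUSG00000024959, chromosome 19) had a log2 change of 0.19 ± 0.16 (edgeR, adjusted p = 0.291). It passed under 3 of 18 alternatives, as higher at day 10: with the length trend removed (log2 0.76, edgeR adjusted p = 0.000638) and on TPM with either pseudocount (log2 0.63 and 0.66, limma-trend adjusted p = 0.009 and 0.00965). Its distance from the TPM median was 0.23. Over all alternatives the adjusted p was 0.000638 to 0.607. Bad overlaps the antisense gene Gpr137, which had 289 counts at day 10 and 269 at day 0 over the group.

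**Figure D2:**
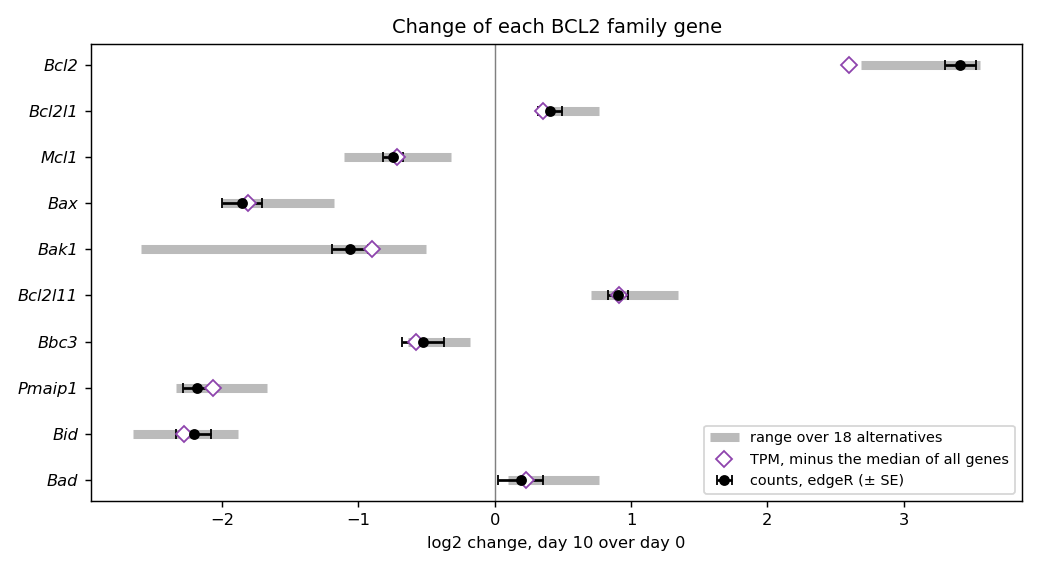
Log2 change of each gene, day 10 over day 0, from edgeR on counts (black points, bars ± SE), from TPM minus the median of all genes (open diamonds), and the range over 18 alternatives (grey bars). No grey bar crosses 0, and that of Bak1 is the widest, reaching -2.60 with protein-coding transcripts alone.

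The order of levels within the family was different on the 2 days. Per length, the day 10 order was Mcl1 (199 TPM), Bcl2l1 (79.9), Bcl2l11 (59.8), Bax (49.1), Bad (20.6), Bcl2 (19.6), Bak1 (12.4), Bbc3 (7.52), Pmaip1 (7.26) and Bid (6.01 TPM). Of the 9 neighbouring pairs in that order 4 had ranges that did not overlap. The pairs Bcl2l1 and Bcl2l11, Bcl2l11 and Bax, Bad and Bcl2, Bbc3 and Pmaip1, and Pmaip1 and Bid did not differ beyond their spread. At day 0 the order was Mcl1 (248 TPM), Bax (133), Bcl2l1 (46.4), Pmaip1 (25.3), Bid (24.6), Bcl2l11 (23.6), Bak1 (17.9), Bad (12.8), Bbc3 (8.62) and Bcl2 (1.59 TPM). There 7 neighbouring pairs were apart, and Pmaip1 and Bid, and Bid and Bcl2l11, overlapped. Bcl2 was thus the lowest member at day 0 and in the middle of the order at day 10, while Pmaip1 and Bid stood in the middle at day 0 and at the bottom at day 10.

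Summed by role in TPM, the anti-apoptotic genes had totals that overlapped between days. The pro-apoptotic genes had a smaller total at day 10, with a mean of 163 TPM against 246 TPM at day 0. The fall of Bax alone, from 133 TPM at day 0 to 49.1 TPM at day 10, was about as large. The 3 anti-apoptotic genes summed to 298 ± 7.04 TPM at day 10 and 296 ± 16.2 TPM at day 0 (SD, n = 4 each, as for the other sums), with overlapping ranges. That overlap depended on the unit: on CPM they summed to 381 to 435 at day 10 and 538 to 595 at day 0. Within the TPM total Mcl1 made up 66.6 ± 4.88% at day 10 and 83.8 ± 1.07% at day 0, and Bcl2l1 26.8 ± 4.68% and 15.7 ± 1.04% on those days. Bcl2 made up 6.59 ± 0.675% at day 10 and 0.540 ± 0.130% at day 0. Each of these shares was apart between days in every library, lower at day 10 for Mcl1 and higher for Bcl2l1 and Bcl2. Leaving Mcl1 out, the other two summed to 99.5 ± 15.2 TPM at day 10 and 48.0 ± 2.55 TPM at day 0.

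The effectors summed to 61.5 ± 5.44 TPM at day 10 and 151 ± 25.2 TPM at day 0, with no overlap. The 5 BH3-only genes summed to 101 ± 9.69 TPM at day 10 and 94.9 ± 6.38 TPM at day 0, with overlapping ranges. That overlap also depended on the unit. On CPM the BH3-only sum of every day 10 library was lower than that of every day 0 library. The makeup of the BH3-only total differed on TPM: Bcl2l11 was 59.3 ± 4.18% of it at day 10 and 24.8 ± 1.38% at day 0. The ratio of pro- to anti-apoptotic TPM was 0.510, 0.617, 0.520 and 0.536 in the day 10 libraries, against 1.004, 0.664, 0.835 and 0.839 in the day 0 libraries. The days were apart on TPM, though the highest day 10 library and the lowest day 0 library, both numbered 2, were close. On CPM, where every role summed to less at day 10, the ratio overlapped between days. Without day 10 library 2 the day 10 mean ratio was 0.522, and the anti-apoptotic sum was 299 ± 8.46 TPM, still overlapping day 0. With protein-coding transcripts alone the day 10 ratio was 0.402 and the day 0 ratio 0.737. These sums over chosen genes are descriptions and were not tested.

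**Figure D3:**
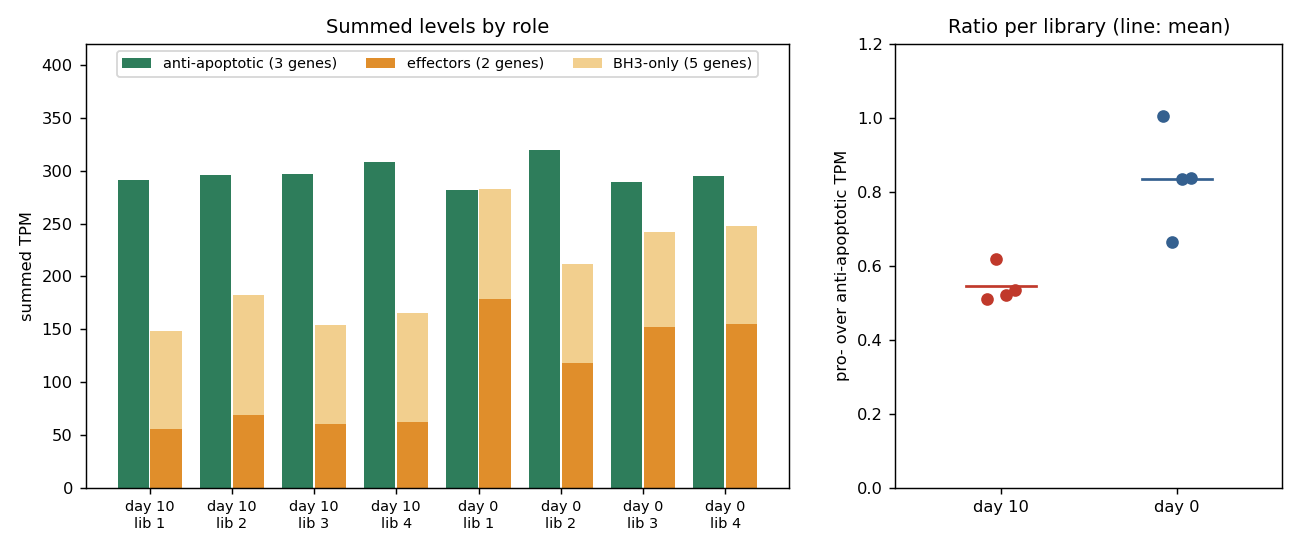
Left, summed TPM per library of the anti-apoptotic genes (green) beside the effectors and BH3-only genes stacked (orange and light orange). Right, the ratio of pro- to anti-apoptotic TPM with 1 point per library and a line at the mean, which is 0.546 at day 10 and 0.835 at day 0.

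Single pairs show where the ratio moved. Of the 21 ratios of a pro- to an anti-apoptotic gene, 15 were lower at day 10 in every library, 3 were higher and 3 overlapped. The 21 ratios share 10 genes and are not separate results, and no share over all gene pairs was computed. For single genes, the CPM of the days did not overlap for 77.9% of all tested. Against Bcl2, which rose more than any other member, all 7 were lower: Bax over Bcl2 was 2.51 ± 0.349 at day 10 and 84.1 ± 7.71 at day 0. Against Bcl2l1, 5 were lower, Bcl2l11 was higher (0.762 ± 0.0968 at day 10 and 0.511 ± 0.0856 at day 0) and Bad overlapped. Bax over Bcl2l1 was 0.620 ± 0.0516 at day 10 and 2.89 ± 0.683 at day 0. Against Mcl1, Bax, Pmaip1 and Bid were lower, Bak1 and Bbc3 overlapped, and Bcl2l11 and Bad were higher. Bcl2l11 over Mcl1 was 0.303 ± 0.0379 at day 10 and 0.0950 ± 0.0112 at day 0, and Pmaip1 over Mcl1 was 0.0367 ± 0.00405 and 0.102 ± 0.00628 on those days. The counts of lower, higher and overlapping ratios were the same without day 10 library 2. These ratios use all transcripts of a gene, also those with no coding sequence. Over transcripts that encode the BH3 core alone, a choice made after the values were seen, Bcl2l11 over Bcl2l1 was 0.504, 0.349, 0.415 and 0.478 at day 10, against 0.416, 0.449, 0.273 and 0.374 at day 0, so that the days overlapped. Bcl2l11 over Mcl1 was 0.127 ± 0.00602 at day 10 and 0.0466 ± 0.00386 at day 0 on that basis, with no overlap. BIM transcripts were thus more abundant relative to those of MCL1 at day 10 by either sum, and relative to those of Bcl-xL only where transcripts without the core were included.

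Transcript usage was compared as the share of each transcript in its gene's TPM. Of 31 member transcripts tested, 7 had shares that did not overlap between days (22.6%), against 22.4% of all 39929 transcripts tested, so the members were at the background. Each of the 7 had p = 0.0286 in a two-sided exact permutation test over 70 assignments of the libraries, which is the smallest value this design allows, and an adjusted p of 0.128. No transcript passed after adjustment, among the members or among all genes, where 8944 had p under 0.05 before it. The differences in share are therefore descriptions. With 1 library left out in turn 7 to 11 did not overlap, the most without day 10 library 4 (11 of 31, or 35.5%, against 26.9% of all transcripts tested without it).

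Bcl2 has 2 transcripts, the full-length Bcl2-201 (236 codons) and the shorter Bcl2-202 (199 codons). Bcl2-201 took 60.8, 55.5, 62.6 and 62.4% of the gene at day 10, against 42.5, 53.3, 32.9 and 50.02% at day 0. The highest day 0 library came within a few percentage points of the lowest at day 10, and day 0 shares rest on few reads. Both transcripts hold the BH3 core, and both were higher in TPM at day 10, at 11.8 and 0.70 TPM on the 2 days for Bcl2-201 and 7.83 and 0.89 TPM for Bcl2-202.

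Bcl2l11 gives rise to the isoforms BimEL, BimL and BimS, which differ in how strongly they kill. The longest, Bcl2l11-205 (196 codons, BimEL), took 33.0 ± 4.61% of the gene at day 10 and 29.6 ± 3.84% at day 0, with overlapping ranges. BimL (Bcl2l11-203, 140 codons) took 3.60, 4.005, 4.89 and 3.06% at day 10, against 11.5, 10.2, 6.05 and 13.7% at day 0. BimS (Bcl2l11-201, 110 codons) took 5.29 ± 1.26% at day 10 and 9.27 ± 0.667% at day 0. The 2 short forms thus had smaller shares in every day 10 library. A processed transcript with no coding sequence, Bcl2l11-208, took 37.3 ± 4.71% at day 10 and 32.7 ± 4.94% at day 0. Summed over the 4 transcripts that encode the BH3 core, Bcl2l11 had 25.1, 23.6, 25.2 and 26.7 TPM at day 10, against 12.2, 12.3, 10.1 and 11.6 TPM at day 0. Less than the full rise of the gene's TPM was therefore in coding transcripts with the core, whose part of the gene was 38.1 to 46.6% at day 10 and 46.1 to 52.1% at day 0.

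Bak1-202, the full-length form (209 codons), took 31.4, 0, 4.55 and 24.9% of Bak1 at day 10, against 48.5, 50.1, 50.3 and 45.2% at day 0. It was lower in every day 10 library, but spread widely there, and in day 10 library 2 its estimate was 0 counts. Bak1-204, annotated as a target of nonsense-mediated decay and without the core, took 63.3 ± 22.6% at day 10 and 42.4 ± 18.4% at day 0, with overlapping ranges. Transcripts with the core summed to 4.14, 2.57, 3.45 and 7.07 TPM at day 10, against 14.03, 8.83, 8.86 and 8.99 TPM at day 0. The days did not overlap. These sums include Bak1-201, which is also decay-annotated and averaged 2.48 TPM at day 10 and 1.51 TPM at day 0. It made up all of the sum in day 10 library 2.

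In Bid, the decay-annotated Bid-204, whose coding sequence is as long as that of Bid-201 (195 codons), took 33.0 ± 7.42% at day 10 and 6.94 ± 5.30% at day 0. The retained-intron form Bid-205 took 2.86 ± 4.39% at day 10 and 15.5 ± 5.75% at day 0. Both were apart between days, though the gene itself held 68 to 115 counts per library at day 10. For the other genes whose core is shown above, transcripts that encode it were higher at day 10 for Bcl2l1 (58.5 ± 7.60 TPM at day 10 and 31.2 ± 4.17 TPM at day 0) and lower for Bax (47.6 ± 5.11 and 131 ± 26.3 TPM on those days). They overlapped between days for Bad and for Bbc3 (5.97 ± 0.775 TPM at day 10 and 5.87 ± 0.797 TPM at day 0). Mcl1-201, the full-length form, held nearly all Mcl1 on both days, and Bax-201 held 81.3 ± 4.96% of Bax at day 10 and 85.7 ± 4.91% at day 0. The split by BH3 core was chosen after the values were seen and has no test.

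The other tested transcripts also had overlapping shares, so that 24 of the 31 overlapped. In Bcl2l1 the 5 tested were Bcl2l1-201 (29.3 ± 4.96% at day 10 and 28.9 ± 4.77% at day 0), Bcl2l1-208, which has 78 codons and no core (25.9 ± 7.62% and 32.8 ± 7.70% on those days), and Bcl2l1-203, Bcl2l1-204 and Bcl2l1-205, with mean shares of 9.25 to 18.7% on either day. Bad-202 took 36 ± 16.5% at day 10 and 60.6 ± 10.4% at day 0, and Bad-209, as long in codons, 28.4 ± 20.3% and 13.5 ± 13.3% on those days, while Bad-201 and Bad-206 had mean shares of 8.75 to 14.2%. Bbc3-201 took 81.5 ± 19.2% at day 10 and 68.9 ± 13.3% at day 0, with most of the rest in the retained-intron form Bbc3-203. Bid-201 took 61.4 ± 10.3% at day 10 and 72.6 ± 10.2% at day 0. The decay-annotated Bak1-201 took 21.5 ± 18.5% at day 10 and 9.12 ± 18.2% at day 0. Pmaip1-201 held 98.3 ± 3.42% at day 10 and 94.1 ± 1.01% at day 0, and Pmaip1-202 the rest. Bax-202, Bax-203 and Bcl2l11-207 had mean shares of 4.09 to 7.34%, and Bcl2l11-202 had 10.9 ± 1.81% at day 10 and 9.39 ± 1.40% at day 0.

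**Figure D4:**
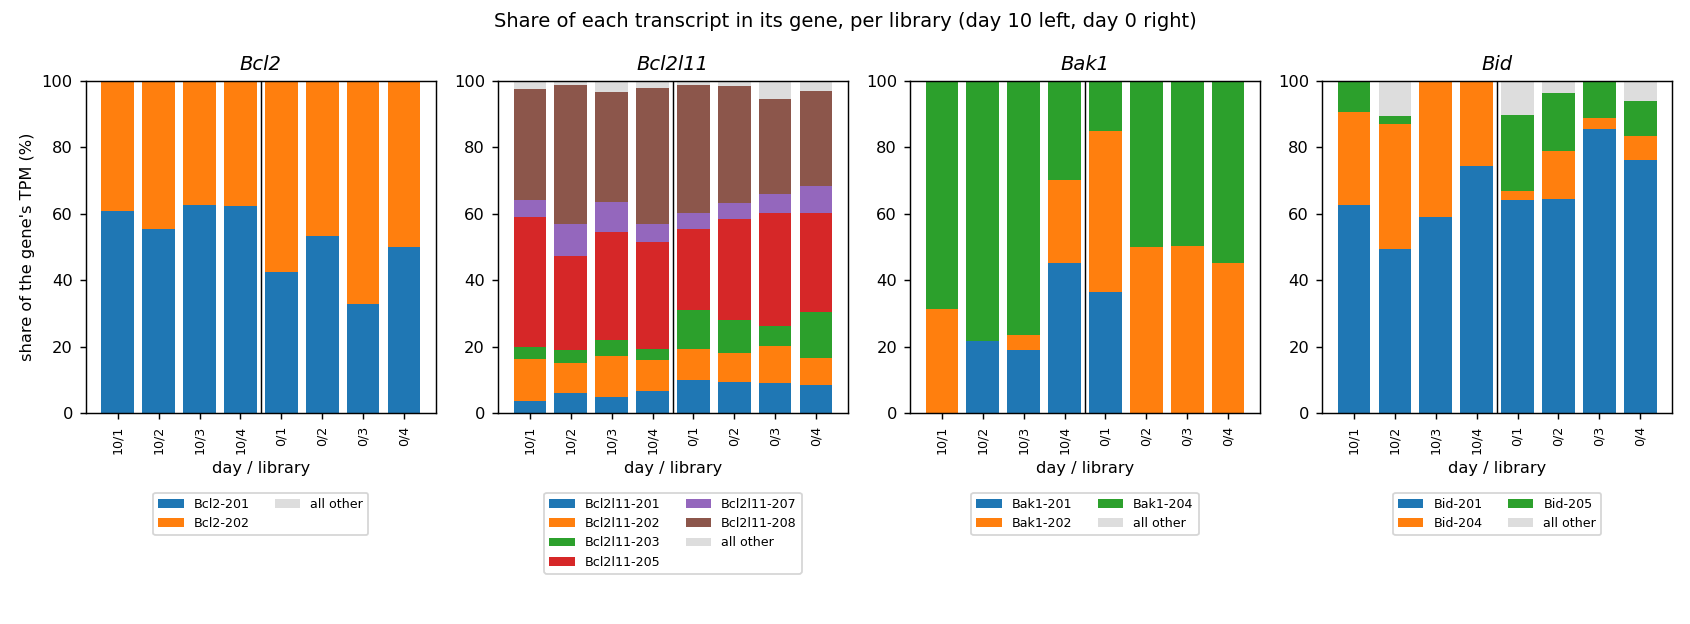
Share of each transcript in its gene's TPM (%, bars stacked to 100) in each library, day 10 left of the line and day 0 right of it, for Bcl2, Bcl2l11, Bak1 and Bid. Shares of Bak1 transcripts spread most between libraries, with Bak1-202 at 0 to 31.4% at day 10 and 45.2 to 50.3% at day 0.

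The 250 bases before the start sites of 9 members were searched for motifs of factors known to act on the family (RefSeq, build GRCm38.p6, 15 windows, both strands). The p53 decamer was found in 1 of these 15 windows, that of Bax, against 7.13% of all 32851 windows. The FOXO word GTAAACA was found in 2 of 15, for Bcl2l11 and Bbc3, against 3.17% of all windows. GGGCGG, the GC box, was in 10 of 15 windows (32.7% of all windows), CCAAT in 4 of 15 (33.8%) and CACGTG in 2 of 15, for Bax and Bbc3 (6.02%). The windows of Bax and Bcl2l11 are shown because p53 and FOXO3 are textbook activators of these genes, and the genes moved in opposite directions. Bbc3, which also holds the FOXO word, fell on counts. Capitals mark the match, at 201 to 192 bases before the start site of Bax and 227 to 221 before that of Bcl2l11, and neither match overlaps another motif searched.
Bax, chr7:45466899-45467148, minus strand: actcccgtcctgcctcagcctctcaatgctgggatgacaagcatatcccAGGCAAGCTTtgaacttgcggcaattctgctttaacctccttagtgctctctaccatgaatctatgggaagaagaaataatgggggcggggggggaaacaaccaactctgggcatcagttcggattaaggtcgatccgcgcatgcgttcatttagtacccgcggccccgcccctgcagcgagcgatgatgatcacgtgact
Bcl2l11, chr2:128125788-128126037, plus strand: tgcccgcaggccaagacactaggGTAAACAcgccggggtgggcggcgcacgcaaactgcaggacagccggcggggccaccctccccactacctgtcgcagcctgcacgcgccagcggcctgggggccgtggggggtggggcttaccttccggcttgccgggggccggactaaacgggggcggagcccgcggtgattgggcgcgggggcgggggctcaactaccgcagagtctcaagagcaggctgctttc
A match is a description and not a bound site. The windows were chosen for display after the values were seen.

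The regulators themselves were measured as a list of 16 genes, of which 15 were tested, 7 higher and 7 lower with 1 not passing (median log2 0.29). Trp53, which encodes p53, fell to 44.1 ± 3.86 CPM at day 10, against 114 ± 10.5 CPM at day 0 (log2 -1.37 ± 0.09, edgeR adjusted p = 2.29e-09). Trp63, a p53 relative, had 463 counts over the day 10 libraries and 1 count at day 0, a ratio of 395 with a 95% exact counting interval of 70.6 to 15650, and a log2 change of 2.35 on log2(TPM + 1). Jun, an AP-1 subunit that acts on Bcl2l11 in neurons, was at 544 ± 42.9 CPM at day 10 and 16.2 ± 2.22 CPM at day 0 (log2 5.06 ± 0.10, edgeR adjusted p = 5.95e-14). Stat5b, which acts on Bcl2l1 in blood cells, was at 43.2 ± 0.483 CPM at day 10 and 17.8 ± 2.15 CPM at day 0 (log2 1.27 ± 0.10, edgeR adjusted p = 1.83e-08). Foxo3, named outside the rule for its motif, was at 189 ± 3.97 CPM at day 10 and 116 ± 9.08 CPM at day 0 (log2 0.70 ± 0.07, edgeR adjusted p = 1.73e-07), and with the length trend removed it had a log2 change of -0.10 (edgeR adjusted p = 0.165). Foxo1 of the same list, also outside the rule, fell on counts (log2 -0.38 ± 0.08, edgeR adjusted p = 0.000371). It was at 42.7 ± 3.56 CPM at day 10 and 55.5 ± 0.385 CPM at day 0. Its log2 change was -1.28 with the length trend removed and 0.05 on log2(TPM + 1) (limma-trend adjusted p = 0.721). Action of these factors on any member was not tested.

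Around the 10 members, 8 lists of other apoptosis genes held 102 genes, of which 90 were tested, 35 higher and 42 lower. The 77 called are 85.6% of those tested, near the 82.1% of all genes. Medians of lists moved with the unit, as that of all genes did. On log2(TPM + 1) they were 0.31 for other BCL2 relatives, 0.25 for apoptosome and caspase genes, 0.43 for MCL1 turnover, -0.26 for pores and dynamics and -0.25 for BAD kinases and 14-3-3 proteins, and with the length trend removed that of the transcription regulators was -0.10. Among other BCL2 relatives (11 of 17 tested), 4 were higher, 4 lower and 3 did not pass, with a median log2 of -0.10. Bmf, a BH3-only gene linked to the cytoskeleton, was at 40.0 ± 4.83 CPM at day 10 and 17.6 ± 1.41 CPM at day 0 (log2 1.18 ± 0.11, edgeR adjusted p = 1.15e-07), and with an offset for average transcript length its log2 change was 0.59 (edgeR adjusted p = 0.0185). Bok, an effector-like relative, fell to 2.94 ± 0.218 CPM at day 10, against 8.67 ± 1.83 CPM at day 0 (log2 -1.56 ± 0.19, edgeR adjusted p = 3.93e-06), or by 0.98 on log2(TPM + 1). Bcl2a1d, a blood-cell survival gene, had 123 counts over the day 10 libraries and 0 at day 0, which is at least 35.0-fold higher where day 0 is set to a group floor of 3 counts. Its near-identical copies share reads, so it is uncertain as a single gene, and the blood markers above moved with it. Bcl2l13 had a log2 change of 0.29 ± 0.07 (edgeR, adjusted p = 0.00146), which turned to -0.50 with the length trend removed.

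Downstream of the pore, the mitochondrial factors Cycs, Diablo and Aifm1 fell, within a list that was split. Of 14 apoptosome and caspase genes, 5 were higher, 7 lower and 2 did not pass (median log2 -0.09). Cycs, the cytochrome c that assembles the apoptosome, was at 43.6 ± 4.30 CPM at day 10 and 92.6 ± 5.94 CPM at day 0 (log2 -1.09 ± 0.08, edgeR adjusted p = 1.95e-08). Diablo, which encodes the IAP antagonist SMAC, fell by 0.81 ± 0.07 on the log2 scale, and Aifm1, a mitochondrial flavoprotein, by 1.46 ± 0.09. On log2(TPM + 1) Cycs was at -0.61 and Diablo at -0.47. Casp8, the initiator that cleaves BID, was at 33.7 ± 4.2 CPM at day 10 and 8.33 ± 1.32 CPM at day 0 (log2 2.02 ± 0.13, edgeR adjusted p = 4.3e-09), opposite to Bid itself.

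Of 14 genes of mitochondrial pores and dynamics, 2 were higher, 10 lower and 2 did not pass (median log2 -0.57). Vdac2, an outer-membrane channel that recruits BAK and BAX, was at 145 ± 5.34 CPM at day 10 and 293 ± 8.95 CPM at day 0 (log2 -1.01 ± 0.06, edgeR adjusted p = 7.1e-10). Vdac3, a related channel, fell by 0.98 ± 0.07 on the log2 scale and Slc25a5, an ADP/ATP carrier, by 2.10 ± 0.07. Vdac2 and Vdac3 were at -0.55 and -0.61 with the length trend removed, and Vdac2 at -0.50 on log2(TPM + 1). Mff, a fission receptor, was higher by log2 0.60 ± 0.06, a call lost with protein-coding transcripts alone (log2 0.21, edgeR adjusted p = 0.115), and it was at 0.33 with the length offset and 1.03 with the length trend removed.

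Of 8 death receptor pathway genes tested of 10, 5 were higher, 1 lower and 2 did not pass (median log2 1.32, and 1.52 on log2(TPM + 1)). Tnfrsf1a, a TNF receptor, was at 45.8 ± 5.56 CPM at day 10 and 4.12 ± 1.13 CPM at day 0 (log2 3.5 ± 0.17, edgeR adjusted p = 1.67e-10). Cflar, which encodes the caspase-8 inhibitor FLIP, was at 128 ± 5.0 CPM at day 10 and 27.0 ± 0.834 CPM at day 0 (log2 2.25 ± 0.07, edgeR adjusted p = 1.31e-12), and the kinase gene Ripk1 was higher by log2 1.59 ± 0.09. Traf2, an adaptor, fell by 0.43 ± 0.13, a call lost on TPM (log2 -0.21 and -0.24, limma-trend adjusted p = 0.124 and 0.136), and it was at -0.67 with the length offset. Of 8 IAP genes tested of 10, 5 were higher, 2 lower and 1 did not pass (median log2 1.11). On log2(TPM + 1) their median was 0.70, beside 0.40 for all genes, and with the length trend removed 4 were higher and 4 lower. Xiap, which inhibits caspases directly, was among those that depended on the unit, at 0.36 on counts and -0.39 with the length trend removed. Birc3, a ubiquitin ligase of TNF signalling, was higher by log2 1.87 ± 0.17 and Naip6 by 2.99 ± 0.29, with Naip6 at 1.05 on log2(TPM + 1), while Naip2 had 101 counts over the day 10 libraries and 0 at day 0, which is at least 28.7-fold higher with the same floor (log2 0.82 on log2(TPM + 1)). Naip genes are close paralogues that can share reads. Birc5, which encodes survivin and works in mitosis, fell to 40.7 ± 2.28 CPM at day 10, against 137 ± 10.7 CPM at day 0 (log2 -1.75 ± 0.08, edgeR adjusted p = 4.66e-11), as did the 8 proliferation markers on counts.

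Regulators of single members were mixed. Of 5 genes of MCL1 turnover tested of 6, 2 were higher and 3 lower (median log2 -0.27). Fbxw7, a ubiquitin ligase subunit that marks MCL1, was at 34.1 ± 2.42 CPM at day 10 and 74.4 ± 3.06 CPM at day 0 (log2 -1.13 ± 0.08, edgeR adjusted p = 4.6e-09), and Bag3, a co-chaperone that stabilises it, was higher by log2 0.94 ± 0.10. Fbxw7 was at -0.59 on log2(TPM + 1). For the ligase gene Huwe1 and the deubiquitinase gene Usp9x the direction depended on the unit. Huwe1 was at -0.27 ± 0.07 on counts and 0.43 on TPM (0.04 relative to the TPM median), and Usp9x at -0.39 ± 0.07 on counts and 0.13 on TPM (-0.27 relative to the median). With the length trend removed they were at -1.05 and -1.10. Of 15 genes of BAD kinases and 14-3-3 proteins, 5 were higher, 8 lower and 2 did not pass (median log2 -0.53). The kinase gene Pim2 was at 3.16 ± 0.836 CPM at day 10 and 51.9 ± 5.37 CPM at day 0 (log2 -4.03 ± 0.16, edgeR adjusted p = 1.56e-11). Pim3 fell by 1.54 ± 0.10 and Rps6ka1 by 1.76 ± 0.09 on counts, and by 0.87 and 1.05 on log2(TPM + 1). The kinases of this list did not all fall. Akt1, Akt2 and Prkaca, named outside the rule, rose on counts by log2 1.46 ± 0.09, 0.95 ± 0.08 and 0.67 ± 0.09.

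**Figure D5:**
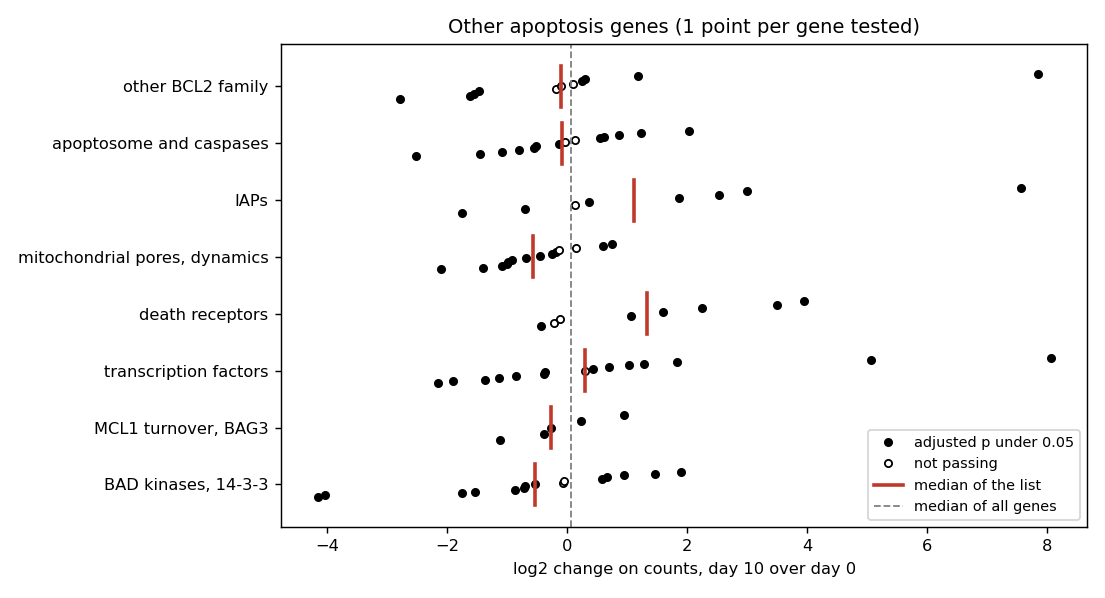
Log2 change on counts, day 10 over day 0, of each gene tested in the 8 lists (1 point per gene, filled where edgeR's adjusted p was under 0.05), with the median of each list (red) and that of all genes (dashed, 0.06). The medians of the death receptor and IAP lists, 1.32 and 1.11 on counts, lie to the right of it and that of mitochondrial pores and dynamics, -0.57, to the left.

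The genes whose profile over the 8 libraries was most like that of a member were ranked by the root mean square distance between log2 CPM profiles, each centred on its own mean, among 14110 other protein-coding genes. For Bcl2, the member with the smallest p among those that rose, they included Sorcs2 (0.14) and Ablim1 (0.14), against a median distance of 1.74. For Pmaip1, the one with the smallest p among those that fell, they were Mgme1 (0.07), Slc25a5 (0.07) and Nsun2 (0.07), against a median of 1.16. Slc25a5 is also in the list of mitochondrial pores given above. As profiles are centred over both days, this distance mainly reflects how alike the changes between days are. The log2 changes were -2.18 for Mgme1, -2.10 for Slc25a5 and -2.18 for Nsun2, beside -2.19 for Pmaip1. Shared regulation was not tested.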

How the data were processed

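RNA was sequenced from 4 libraries of day 10 and 4 of day 0 of TC1 cells. The authors deposited 1 table per library with estimated counts and TPM per transcript, per the file headers, made with kallisto per the submitters' processing notes, which also name DESeq2. Which kallisto index, genome build and strand setting were used is not stated in the labels or headers. Transcript identifiers without version were matched to GENCODE M21 (117992 of 126126), and the authors' estimated counts and TPM were summed per gene. Counts were rounded to whole numbers and tested with edgeR 4.0.16 (filterByExpr, TMM, robust quasi-likelihood) in R 4.3.3, and changes over 2-fold with glmTreat. Limma 3.58.1 (limma-trend on log2(TPM + 1) or log2(TPM + 0.1)), DESeq2 1.42.0, other scalings, length corrections, a replicate block and leaving out each library were alternatives. The edgeR and permutation steps were tested on simulated data. A transcript entered the share test with a mean share of at least 5% on 1 day and a gene mean of at least 1 TPM on both.

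Named genes are all 10 members, all of their transcripts in the share test, and from each other list up to 3 called genes with the smallest p in its main direction and 1 in the other. Of the genes the rules name, 2 are not reported here. Members and lists were chosen with earlier results of these data known. Libraries of a day differed beyond counting noise (chi-square per degree of freedom 3.97 to 26.9), so none was counted as a duplicate. Intervals and floors cover counting error only.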

Additional observations from a re-analysis of the deposited data

Results flagged for a closer look

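Of 40 checks for a single library standing apart within its day, 1 was positive, and chance alone flags about 1 in 20 groups. Pmaip1 in day 10 library 4 had 8.35 CPM, while the other day 10 libraries had 9.13 to 9.20 CPM. The gap is 0.917 of the range of the group, above Dixon's critical value for 4 samples, and small beside the day 0 values of 36.6 to 43.7 CPM.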

How the results depend on the processing

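The count of member genes called was 8 or 9 under all 18 alternatives, and that of other apoptosis genes 72 to 80. The members called were not always the same. With the length trend removed and on TPM, Bbc3 dropped out and Bad passed as higher. Over all genes 11101 to 14388 were called, and leaving out 1 library in turn gave 12187 to 12492. The day 10 ratio of pro- to anti-apoptotic TPM moved to 0.402 with protein-coding transcripts alone, and was 0.522 to 0.558 with 1 library left out. On CPM that ratio overlapped between days. Direction turned for Bcl2l13 with the length trend removed (-0.50), for Usp9x on TPM (0.13 with either pseudocount) and for Huwe1 on TPM (0.43 with either). It also turned for Klf4 (0.24) and Foxo1 (0.05) on log2(TPM + 1), and for Xiap (-0.39) and Foxo3 (-0.10) with the length trend removed. With an offset for average transcript length Huwe1 was at -0.0056 (edgeR adjusted p = 0.941). Over transcripts with the BH3 core alone, chosen after the values were seen, the day 10 ratio of Bcl2l11 to Bcl2l1 was 0.437, against 0.762 over all. The causes were not tested. Whether the replicate numbers pair the libraries is not labelled. Same-numbered libraries deviated together only weakly, at r = 0.031 to 0.042, against -0.052 to 0.016 for different numbers. Each library correlated best with its own number, a hint from the data only. With the number as a replicate block 12298 genes were called, against 12399 without it, and 9 members on both counts. The block changed no call of a named gene. The fewest counts per library lay behind Bcl2 at day 0 (56 to 71), Bbc3 at day 10 (67 to 87) and Bid at day 10 (68 to 115), and what depth limits there was not tested further.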
